A study of Mus musculus with 38 samples.

Results

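The genes described here are the distal-less homeobox genes Dlx1, Dlx2, Dlx5 and Dlx6, the zinc finger genes Sp8 and Sp9 and the glutamate decarboxylase genes Gad1 and Gad2. They were taken by symbol, and all 8 were found among the 25965 genes of the RNA table, with 25 of its 72923 promoter windows in the histone table. Neural stem/progenitor cells (NSPCs) were grown as neurospheres in medium with EGF and FGF from the subventricular zone (SVZ) of male mice at 3 months (young adult) or 18 months (aged). For C57BL/6J/Babr there were 3 derivations per age, made on different days from the pooled tissue of several mice and harvested at the second passage. RNA, H3K4me3, H3K27me3 and Input chromatin, and bisulfite (BS) and oxidative bisulfite (oxBS) DNA were sequenced from these cultures. RNA of 1 young adult and 1 aged culture came from the C57BL/10 strain by its strain label, which was used here, although the growth note of these 2 libraries names C57Bl/6. These mice were kept at another facility, so strain and facility cannot be told apart. Neurospheres are passaged cultures that lack the vessels, ependymal wall and neighbours of the SVZ.

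In the adult forebrain, SVZ progenitors of the lateral and dorsal ventricular wall give rise to neuroblasts that migrate to the olfactory bulb and become inhibitory interneurons. Dlx2 and Dlx1 act early in this lineage and sit side by side on 1 chromosome, and Dlx5 and Dlx6, a second linked pair, act later and are regulated by Dlx2 and Dlx1. Sp8 and Sp9 are closely related transcription factors of migrating and maturing interneurons, with Sp8 marking the lineage that gives calretinin periglomerular cells. Gad1 and Gad2 encode the enzymes GAD67 and GAD65, which make the transmitter GABA from glutamate. H3K4me3 marks promoters of active or poised genes, H3K27me3 is the mark laid down by Polycomb repressive complexes, and many developmental promoters of stem cells carry both.

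The promoters of the paralogs Sp8 and Sp9 are shown for their likeness. Over all pairs of member promoters (RefSeq, GRCm38.p6, the 250 bases before each start), the longest run of identical bases was 15 and was shared by Sp9 and Sp8. It was found in 2 of 32851 mouse promoters when both strands were searched, those of these 2 genes. The run is in capitals in the 30 bases printed for each gene, Sp9 at chr2:73271888-73271917 and Sp8 at chr12:118847167-118847196, both on the plus strand. It ends 16 bases before the start of Sp9 and 44 bases before a RefSeq start of Sp8. In Sp8 the run lies past the point where an annotated exon of the gene begins, so transcripts from other starts may hold it.
Sp9: cgcagccaGCGGCACTTCAAAGCgggtgct
Sp8: gcgcctccGCGGCACTTCAAAGCcggagag

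That start of Sp8 lies 904 bp downstream of the start on which the authors centred their promoter window, and the sequences before the 2 starts differ in CpG content. The stretches are shown with each CpG in capitals, the first from chr12:118846079-118846287 before the upstream start and the second from chr12:118846983-118847152 before the downstream one, both on the plus strand and ending at the first annotated exon.
Sp8 upstream: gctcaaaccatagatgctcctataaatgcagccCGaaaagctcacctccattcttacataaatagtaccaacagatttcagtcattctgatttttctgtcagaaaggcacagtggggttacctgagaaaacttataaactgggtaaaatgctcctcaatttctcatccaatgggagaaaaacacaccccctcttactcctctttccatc
Sp8 downstream: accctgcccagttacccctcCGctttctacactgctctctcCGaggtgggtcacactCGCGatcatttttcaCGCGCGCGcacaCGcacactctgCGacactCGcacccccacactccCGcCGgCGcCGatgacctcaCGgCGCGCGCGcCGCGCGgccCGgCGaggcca

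The upstream stretch of 209 bases holds 1 CpG and the downstream stretch of 170 bases holds 25. Over the full 250 bases before the downstream start, which run past the beginning of that exon, there were 32 CpGs, more than in 95.4% of promoters, whose median count was 6. A TATA box motif, the letters TATAAA on either strand, was present in the 250 bases before the upstream start and in 12.4% of promoters.

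Dlx2 is shown as the member with a CpG-rich promoter whose start falls at the centre of its window. Its 250 bases at chr2:71546755-71547004 on the minus strand hold 24 CpGs, more than in 88.02% of promoters.
Dlx2: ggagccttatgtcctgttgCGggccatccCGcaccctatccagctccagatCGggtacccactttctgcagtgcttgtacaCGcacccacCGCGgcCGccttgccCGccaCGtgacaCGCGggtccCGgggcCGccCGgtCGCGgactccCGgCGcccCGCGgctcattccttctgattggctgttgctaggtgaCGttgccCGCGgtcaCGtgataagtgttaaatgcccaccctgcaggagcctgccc

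The E-box CACGTG occurs 2 times in this stretch and at least once in 6.02% of promoters. The core CCAAT, searched on both strands and present in 33.8% of promoters, occurs in those of Dlx2, Sp9 and Gad2 and before both of these Sp8 starts. The homeodomain core TAATTA (4.84% of promoters) was found only before another RefSeq start of Sp8. Such matches are letters in a window and were not tested as sites. Dlx5 and Dlx6 have no entry in the promoter table used.

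The libraries held 16952486 to 41053972 reads for RNA, so that a gene with no read could lie at up to 0.0731 to 0.177 RPM (reads scaled to a common library total), the limit that 3 reads set. The NSPC markers, Nes and Sox2 among them, summed to 7577 to 8632 RPM in young adult and 6927 to 8221 RPM in aged libraries of C57BL/6J/Babr, and all 9 were tested. Neuroblast markers summed to 786 to 892 and 874 to 975 RPM. The genes of that list differed widely in level, so the sum says little of its low members. In young adult NSPCs the mean log2 RPM was highest for Dclk1 (8.09) and lowest for Dcx (-1.01) and Stmn2 (-2.02). In aged NSPCs these 3 genes stood at 8.02, -1.36 and -1.50. Of 6 striatal neuron and 12 pallial glutamatergic genes 1 each reached the level for a test (Adora2a and Emx2). The summed astrocyte markers did not overlap between ages, at 1599 to 1857 RPM in young adult and 1411 to 1458 RPM in aged libraries and 1 of 7 genes higher in aged NSPCs. Nor did the sums of 3 other lists overlap, in RPM of young adult and aged libraries. These were the members (49.2 to 63.6 and 38.4 to 47.5) and 2 lists described below. Most of the members' sum was Gad2 alone, at 35.4 to 42.9 and 25.2 to 34.7, so that sum says little of the other members. Of the 2 lists, the forebrain regulators held 335 to 352 and 378 to 393, and the interneuron subtype markers 6.87 to 9.27 and 9.98 to 13.1.

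Transcripts of Gad2 were the most abundant of the group, those of Gad1, Dlx1, Dlx2 and Sp9 were low, Sp8 was near the limit of detection, Dlx6 had reads in 1 library only and Dlx5 had none. Levels between genes were compared per length, as the log2 RPM less the log2 of the exonic length in kb. In young adult NSPCs this level was 2.76 for Gad2 and 0.04 for Gad1, then -0.17 for Dlx2, -0.22 for Sp9, -1.19 for Dlx1 and -2.94 for Sp8. Gad2 stood above 71.5% of the 18619 genes with reads, and Gad1, Dlx2 and Sp9 above 36.6% to 38.5%. The differences between the neighbours Gad1, Dlx2 and Sp9 were smaller than the SD of Dlx2 between libraries (0.75). In aged NSPCs the order was 2.34 for Gad2, -0.22 for Gad1, -0.42 for Sp9, -0.97 for Dlx2, -1.65 for Dlx1 and, lowest, Sp8, for which 1 library without reads allows no exact level. Reads were counted without strand, so those of Dlx1 cannot be told apart from its antisense transcript Dlx1as, which spans the gene, and the same holds where Gad1os meets the start of Gad1 and Cir1 the end of Sp9. It also holds for Dlx6, which its antisense transcript Dlx6as1 spans.

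**Figure D1:**
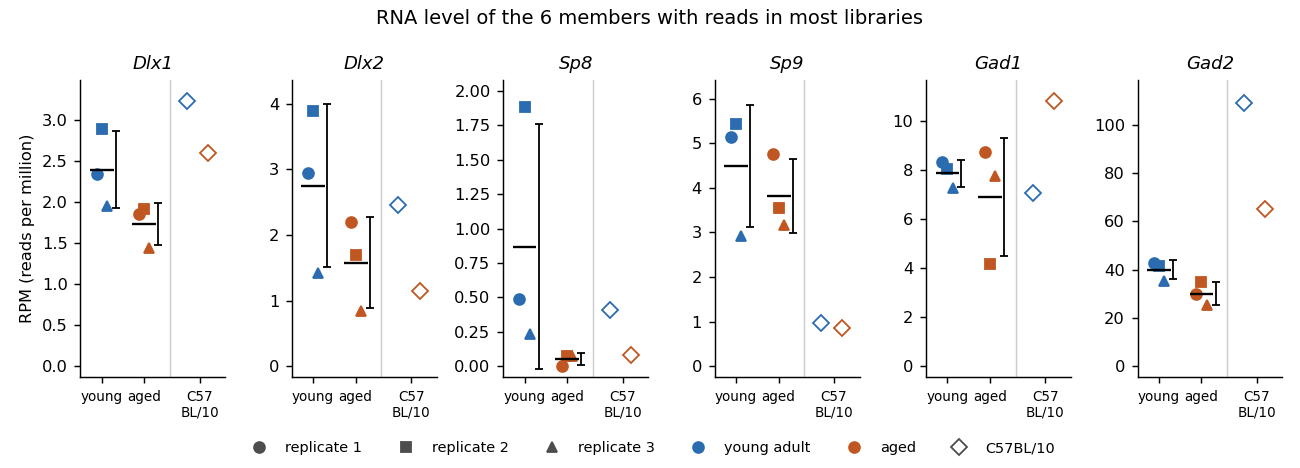
RNA level in RPM of 6 of the 8 genes in each library, with a panel and a linear scale of its own for each gene. Filled symbols are the 3 replicates per age of C57BL/6J/Babr, lines and bars their mean and SD, and open diamonds the single C57BL/10 libraries. Within C57BL/6J/Babr the aged values lie below all young adult values for Sp8, Dlx1 and Gad2, and both C57BL/10 values lie below all others for Sp9 and above all others for Gad2.

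Sp8 (chromosome 12 of GRCm38, 118846329 to 118852578) showed the largest difference between ages. Reads on the gene numbered 20, 32 and 6 in young adult replicates 1 to 3 and 0, 2 and 3 in the aged ones. In RPM, young adult replicates 1 to 3 stood at 0.487, 1.89 and 0.230, and aged replicates 1 to 3 at 0, 0.0722 and 0.0760. All aged values lay below all young adult values, and the shallowest library, young adult replicate 2, held the highest one. In bulk cultures such as these, fewer cells of a type and less RNA per cell cannot be told apart. Over summed reads the aged rate was 0.0677 times the young adult rate (exact 95% interval 0.0212 to 0.167, which covers counting error only). In C57BL/10 there were 11 reads in the young adult and 2 in the aged library, a ratio of 0.201 (0.0217 to 0.921). Sp8 was too low for the limma test, and in edgeR's quasi-likelihood test on genes with at least 10 reads its log2 fold change was -3.99 (Benjamini-Hochberg adjusted p = 0.99988). With the replicate number as a block it was -3.87 (adjusted p = 0.0123 in edgeR), with 1.55e-08 to 0.0118 when a replicate pair was left out (adjusted p in edgeR). Sp8 entered these fits only through its young adult reads, since its 5 aged reads lie under the minimum of 10, and that minimum was chosen after seeing the data, so these p-values describe the gene and are not independent support for a difference. In the fit with the block 0.696% of all 16804 genes were called, 0.434% lower in aged NSPCs. Among genes with at least 10 reads, all aged values lay below all young adult values in 2.18%. DESeq2 without the block gave -4.15 (adjusted p = 0.169). Leaving out 1 library at a time moved the edgeR value without the block from -4.54 (without aged replicate 3) to -2.90 (without young adult replicate 2), and leaving out a pair moved that with the block from -4.99 (pair 3) to -3.20 (pair 2).

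Its paralog Sp9 (chromosome 2, 73271925 to 73284706), which had 379 reads over the young adult and 413 over the deeper aged libraries, stood at a summed rate of 0.855 times the young adult one (0.742 to 0.986, counting error only). Young adult replicates 1 to 3 had a log2 RPM of 2.36, 2.44 and 1.54, and aged replicates 1 to 3 of 2.25, 1.82 and 1.66. The ranges overlapped, and the log2 fold change was -0.20 (SE 0.275, 95% interval -0.83 to 0.43, adjusted p = 0.99998 in limma). Without young adult replicate 3 it was -0.49 and without aged replicate 1 it was -0.37, and without young adult replicate 1 or 2 or aged replicate 3 it was -0.08, -0.04 and -0.08. Of the other Sp genes, which are broadly expressed in the case of Sp1 to Sp4, the log2 fold change was 0.12 for Sp1, 0.02 for Sp2, 0.02 for Sp3 and -0.17 for Sp4, none past the test. Sp5 and Sp7 held at most 6 and 3 reads in a library and Sp6 between 1 and 27.

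Gad2 (chromosome 2, 22622205 to 22693874) was lower in aged NSPCs by a small amount that repeated in each pair. Its log2 RPM was 5.42, 5.37 and 5.15 in young adult and 4.91, 5.12 and 4.65 in aged replicates 1 to 3. The ages did not overlap, and the mean was 39.9 ± 3.98 RPM in young adult and 29.96 ± 4.77 RPM in aged NSPCs (SD, n = 3 each). The log2 fold change was -0.42 (SE 0.135, 95% interval -0.73 to -0.11, adjusted p = 0.99998 in limma). With the replicate block the adjusted p was 0.0425 in limma, where 0.498% of 14858 genes were called and 0.296% were called lower, and 0.0249 in edgeR. Without replicate pair 1, 2 and 3 in turn it was 0.00593, 1.70e-07 and 0.309 in limma and 0.00933, 4.69e-06 and 0.227 in edgeR. The log2 fold change was then -0.37, -0.50 and -0.39 in limma. Fits without a pair lean on spread shared over all genes, so their p-values say little of Gad2 alone.

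Gad1 (chromosome 2, 70553072 to 70602014), which encodes the other decarboxylase, overlapped between ages. Its log2 RPM was 3.05, 3.00 and 2.86 in young adult and 3.13, 2.05 and 2.95 in aged replicates 1 to 3. Aged replicate 2 alone stood low. The log2 fold change of -0.26 (SE 0.264, adjusted p = 0.99998 in limma) was 0.07 without that library.

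Dlx1 (chromosome 2, 71528113 to 71533981) and Dlx2 (chromosome 2, 71543409 to 71546754) lie close together on opposite strands. The log2 RPM of Dlx1 was 1.23, 1.53 and 0.97 in young adult and 0.89, 0.94 and 0.53 in aged replicates 1 to 3. All aged values lay below all young adult values, as they did in 2.05% of the genes tested, with a log2 fold change of -0.46 (SE 0.231, adjusted p = 0.99998 in limma and 0.483 with the block). For Dlx2 the values were 1.56, 1.96 and 0.50 against 1.14, 0.76 and -0.26. The ages overlapped because replicate 3 was lowest in both, and within pairs the difference was -0.42, -1.20 and -0.76. The log2 fold change was -0.79 (adjusted p = 0.99998 in limma), and it ran from -0.39 without aged replicate 3 and -0.48 without young adult replicate 2 to -1.21 without young adult replicate 3. With the block the adjusted p was 0.138 in limma and 0.112 in edgeR. Without replicate pair 1 it was 0.0199 and 0.0182, in fits that called 409 and 311 genes, 1.73% and 1.1% of those tested being lower, without pair 2 it was 0.136 and 0.203, and without pair 3 it was 0.182 and 0.170. As for Gad2, fits without a pair lean on spread shared over all genes. Dlx1as had a log2 fold change of -0.54 (SE 0.263, adjusted p = 0.99998 in limma), with all aged values below all young adult values.

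Dlx5 (chromosome 6, 6877805 to 6882085) had 0 reads in all 8 libraries. Its neighbour Dlx6 (chromosome 6, 6863334 to 6868568) had 5 reads in young adult replicate 1 and 0 in the other 7 libraries. The transcript Dlx6as1, antisense to Dlx6, had at most 3 reads in a library, and Dlx3 and Dlx4, Dlx genes that are active outside the forebrain, had 0.

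Without the block limma called 0 of 14858 genes (0% background), with 258 at an unadjusted p under 0.05, edgeR called 0 (254) and DESeq2 4 (0.0269%, with 219). Of the members, 5 were tested, all with a lower mean in aged NSPCs and a median log2 fold change of -0.42, while over all genes tested 7346 were lower and the median was 0.00. Gad2, Dlx1 and Dlx2 were lower in aged NSPCs in all 3 pairs and in C57BL/10, a pattern of 10.4% of the genes tested. The summed astrocyte level was lower, although none of its 7 genes passed with or without the block. The summed neuroblast level overlapped between ages but was higher in aged NSPCs in all 3 pairs and in C57BL/10 (1018 RPM in young adult, 1197 in aged). The part of cell makeup in these differences was not tested.

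**Figure D2:**
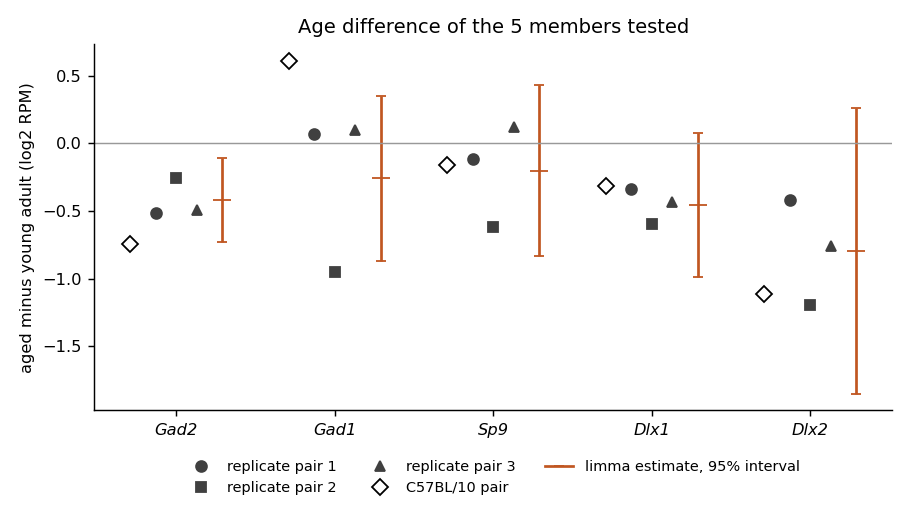
Difference in log2 RPM, aged minus young adult, of the 5 genes that reached the level for the limma test. Filled symbols are pairs of libraries with the same replicate number, open diamonds the C57BL/10 pair, and orange bars the limma estimate without the block with its 95% interval. All 4 pairs lie below 0 for Gad2, Dlx1 and Dlx2, and the Gad1 and Sp9 pairs fall on both sides.

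The C57BL/10 libraries, which have no replicate, differed between ages by -0.74 in log2 RPM for Gad2, -1.11 for Dlx2, -0.31 for Dlx1, -0.16 for Sp9 and 0.61 for Gad1. As ratios of aged to young adult reads with counting error alone, Gad2 stood at 0.597 (0.561 to 0.634), Dlx2 at 0.462 (0.286 to 0.728), Dlx1 at 0.804 (0.574 to 1.12), Sp9 at 0.893 (0.478 to 1.65) and Gad1 at 1.53 (1.26 to 1.85). Treated as a 4th block, this pair brought Dlx2 past the test (adjusted p = 0.0307 in limma, where 1.78% of genes were called and 0.828% called lower, and 0.0169 in edgeR, where the shares were 2.29% and 1.16%), with Gad2 (0.0105 and 0.00206) and, with the same limit as above, Sp8 (0.00316 in edgeR). The limma test of a difference in age effect between strains was fitted without the replicate block. It takes its spread from C57BL/6J/Babr alone, and the single C57BL/10 libraries are assumed to vary likewise. No member passed it, while 0.00673% of genes did, with 95% intervals as wide as -2.45 to 1.81 for Dlx2 and -0.94 to 0.29 for Gad2.

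For Sp9 and Gad2, the difference between strains was larger than that between ages. Sp9 had a log2 RPM of -0.06 in the young adult and -0.23 in the aged C57BL/10 library, below the lowest C57BL/6J/Babr value of 1.54. In limma with age as a term, the strain difference of Sp9 was -2.16 (SE 0.266, adjusted p = 2.51e-04), where 11.9% of genes were called lower in C57BL/10. Gad2, at 6.77 and 6.02, lay above the highest C57BL/6J/Babr value of 5.42, with a difference of 1.29 (SE 0.135, adjusted p = 7.03e-05 in limma, where 18.2% of genes were called higher). The difference was 0.52 for Dlx1 (adjusted p = 0.0880 in limma), 0.28 for Gad1 (0.467) and -0.20 for Dlx2 (0.742).

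The other genes of GABA handling were read from lists. Of 7 genes of GABA synthesis, transport and breakdown, 5 were tested, 1 higher and 4 lower in aged NSPCs (median log2 fold change -0.13), and none passed with or without the block. The glial GABA transporter gene Slc6a11 had a log2 RPM of 6.30 ± 0.16 and 6.03 ± 0.05 (SD, n = 3 each), with no overlap, a log2 fold change of -0.27 and an adjusted p of 0.99998 in limma (0.181 with the block). Glul, glutamine synthetase, stood at -0.22 and Aldh5a1, which clears a GABA breakdown product, at 0.00. Slc32a1, the transporter that loads GABA into vesicles, had 0 reads in every library. Of 13 GABA receptor genes, 8 were tested, 6 higher and 2 lower (median 0.16). Gabbr2 (0.52) and Gabra2 (0.46) were at the upper end and Gabrb1 (-0.41) and Gabra4 (-0.22) at the lower end. None passed, and only Gabra2 among these 4 had no overlap between ages. All aged values lay above all young adult values in 2 of the 8 receptor genes and in 467 of all 14858 genes tested.

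Regulators of ventral and lateral forebrain identity, listed here as upstream of Dlx genes though this was not tested, went both ways. Of 12, 10 were tested, 7 higher and 3 lower (median 0.12), and their summed level was 335 to 352 RPM in young adult and 378 to 393 RPM in aged libraries. Gsx1, a homeobox gene of the ganglionic eminences, had a log2 RPM of 2.41 ± 0.49 and 3.09 ± 0.36 (SD, n = 3 each), with a log2 fold change of 0.68 and an adjusted p of 0.99998 in limma, and rose with the block (0.0434). Vax1, a homeobox gene of the ventral forebrain, stood at 0.08 ± 0.38 and -1.03 ± 0.37 (SD, n = 3 each) with no overlap, a log2 fold change of -1.11 and an adjusted p of 0.99998 in limma (0.121 with the block). Dbx2 had a log2 RPM of 5.67 ± 0.05 and 6.13 ± 0.36 (SD, n = 3 each), with no overlap. Its log2 fold change was 0.46, with an adjusted p of 0.99998 in limma (0.0805 with the block), and its difference in C57BL/10 was 0.84.

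Genes of olfactory bulb interneuron specification and migration had 11 of 12 members tested, 7 higher and 4 lower, with a median of 0.03, and none passed. Erbb4, a neuregulin receptor of migrating neuroblasts, had a log2 fold change of 0.51 (adjusted p = 0.99998 in limma, 0.128 with the block). All its aged values lay above all young adult values, as they did in 467 of the 14858 genes tested. Bcl11b, a transcription factor of striatal and olfactory neurons, had a log2 fold change of 0.42. Robo2, a receptor for Slit guidance cues, stood at -0.22. Of 11 interneuron subtype markers 4 were tested, all with a higher mean in aged NSPCs. Reln, a secreted glycoprotein, overlapped between ages, with a log2 fold change of 0.82 and an adjusted p of 0.99998 in limma. With the replicate block its adjusted p was 0.0409 in limma, where 0.498% of 14858 genes were called. Htr3a, Npas1 and Pvalb stood at 0.33, 0.13 and 0.02. In C57BL/10 the difference was 0.93 for Reln, 0.78 for Htr3a, -0.30 for Npas1 and -0.05 for Pvalb. Th, the dopamine synthesis enzyme of some periglomerular cells, had 0 reads, as had Vip and Lhx6. Among neuroblast markers 8 of 10 had a higher mean (median 0.14), from 0.52 for Stmn2 to -0.36 for Dcx, and none passed. In C57BL/10 8 of the 10 kept their sign, but these 2 ends of the range, both low in level, did not (-1.08 for Stmn2 and 1.68 for Dcx).

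Over all 8 RNA libraries, the genes most like each member were sought among 13249 whose log2 RPM averaged 0 or more, as a description over points that share strain and derivation. The highest of so many r values over 8 libraries is raised by the selection itself. Values within C57BL/6J/Babr reuse 6 of these libraries and are no separate check. Gad2 ran closest to Ndn (Pearson r 0.978), Mettl10 (0.976) and Snx10 (0.976), and Sp9 to Phgdh (0.996), Ddx18 (0.993) and Rpa2 (0.992). Within the 6 C57BL/6J/Babr libraries alone r was 0.834, 0.833 and 0.936 for the first set and 0.969, 0.966 and 0.931 for the second. Dlx1 ran with Lrrc59 (0.962), Grpel2 (0.958) and Arfrp1 (0.947), Dlx2 with Rlbp1 (0.941), St6galnac2 (0.930) and Tagln (0.929), and Gad1 with Mfsd11 (0.963), Mcph1 (0.952) and Cabp7 (0.948). Among members, r was 0.87 for Dlx1 and Gad2, 0.64 for Dlx1 and Dlx2 and -0.76 for Sp9 and Gad2. Within C57BL/6J/Babr these were 0.91, 0.94 and 0.57, so that the last changed sign.

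Histone marks were compared in windows that reach 2.5 kb to each side of the start of the lowest numbered transcript of a gene, as the authors' 1 log2 RPM value per age over 3 replicates, which carries no error. These windows are wider than the promoter span the study's text names. Each of the 8 windows held both marks at least 2-fold above Input in both ages, against 10.5% of the 25888 windows of all genes in young adult NSPCs. In young adult NSPCs, H3K27me3 was highest at the genes with the fewest reads, with a log2 RPM of 6.31 at Dlx6 and 6.20 at Dlx5, above 99.6% and 99.5% of windows, followed by 5.86 at Sp8, 5.57 at Sp9, 4.47 at Dlx1, 3.99 at Gad1, 3.41 at Gad2 and 3.07 at Dlx2, the last above 92.5%. H3K4me3 ran from 6.25 at Gad1, 5.82 at Dlx2, 5.48 at Sp9, 5.24 at Gad2 and 5.08 at Dlx1 to 4.62 at Sp8, 4.47 at Dlx6 and 3.88 at Dlx5. Dlx5 and Dlx6, which had the fewest reads, thus had in young adult NSPCs the most H3K27me3 and the least H3K4me3 of the group.

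Sp8 was the only member whose window passed the rule used here, under which a window must differ by 1.5-fold and exceed a log2 RPM of 1 in 1 of the ages. Its H3K4me3 was 4.62 in young adult and 3.91 in aged NSPCs, a difference of -0.71 (1.64-fold), at the 0.129 percentile of the 15461 windows above that level, and its H3K27me3 was 5.86 and 6.03. By this rule 0.162% of windows were lower in H3K4me3. Once the matching Input was taken off, the difference was -0.52, which no longer passed. At Sp9 H3K4me3 was 5.48 and 5.44. At the other windows it differed by -0.06 to 0.16, while the median over all windows above the level moved by 0.21. After quantile normalization between ages, which removes that shift, all 8 members stood lower in aged NSPCs (median -0.19), as did 48.8% of all windows, against 5 of 8 before (median -0.03), where 38.1% of all windows were lower. These shares also count windows below the level of the rule. Of the windows above it, 9.55% had, before normalization, a difference under 0.003, that of another Dlx1 window.

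H3K27me3 had a higher value in aged NSPCs at 7 of 8 members, with Gad1 the exception, against 47.4% of all windows. That share also counts windows with little of the mark. Of the 9771 windows above a log2 RPM of 1, 43.6% had a difference under 0.002, that of another Gad1 window, so that most were higher. After quantile normalization 6 of 8 members were higher, against 50% of all windows, and with Input subtracted 5 of 8, against 43.2%. No member passed the rule, which 0.749% of windows passed upward and 0.858% downward. Gad2 came nearest, at 3.41 when young adult and 3.96 when aged (1.47-fold), but the Input of that window differed by 0.45 as well and the difference was 0.11 after its subtraction. At Dlx2 H3K27me3 was 3.07 and 3.45, and the Input was lower by 0.35 in aged NSPCs (difference -0.35). With Input subtracted the H3K27me3 difference was 0.73, past the rule, which 1.45% of windows passed upward in that setting.

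**Figure D3:**
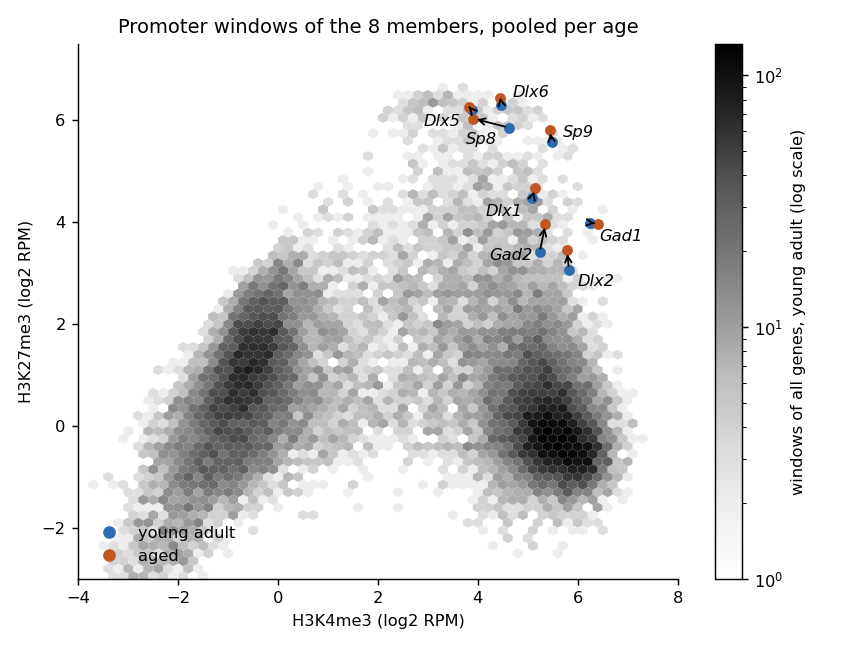
H3K4me3 (x axis) and H3K27me3 (y axis), both in log2 RPM, in the promoter window of each member, with an arrow from young adult (blue) to aged NSPCs (orange), over the young adult windows of all genes in grey (darker means more windows). The members lie in the sparse region where H3K27me3 is high and H3K4me3 is present. H3K4me3 of Dlx5, Dlx6 and Sp8 was close to the median window, above 51.5%, 56.7% and 58.5% of windows in young adult NSPCs. The long arrow to the left is Sp8.

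In oxBS libraries, which read 5mC without 5hmC, the same promoter windows were mostly unmethylated. There were 86 to 303 calls in each window and library, and 13616283 to 21389132 calls per library. In young adult NSPCs 5mC was 7.38% ± 1.1 at Sp8, 10.4% ± 2.8 at Gad1, 11.1% ± 1.1 at Dlx6, 11.2% ± 3.9 at Sp9 and 11.8% ± 2.2 at Dlx5 (SD, n = 3 each). It was higher at Dlx1 (20.5% ± 3.4), Dlx2 (21.0% ± 5.1) and Gad2 (27.7% ± 8.4), and all 8 stood below the median window of 36.8%. Sp8 lay above 4.25% of windows only.

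Among these windows of 2.5 kb to each side, Dlx1 was the single one in which the ages did not overlap. Its 5mC was 22.4%, 16.5% and 22.6% in young adult and 29.4%, 27.1% and 30% in aged replicates 1 to 3 (exact permutation test, two-sided, p = 0.1, the smallest that 3 against 3 allow, 0.8 adjusted over the 8 windows). All aged values lay above all young adult values in 5.92% of windows. The quasi-binomial model gave 8.89 percentage points (p = 0.0112, adjusted p = 0.915), and in BS libraries, which read 5mC and 5hmC together, the difference was -1.89. The oxBS calls lay differently within the window, for which these values were not weighted. The 500-bp bin 2250 bp after the centre held 134 young adult and 69 aged calls (8.96% and 14.5% 5mC). The bin 750 bp before it held 61 and 76 (67.2% and 67.1%). The model called 0 of 23796 windows (0% background), with 1283 at an unadjusted p under 0.05. Sp8 held 6.85%, 8.61% and 6.67% in young adult and 11.4%, 5.06% and 4.30% in aged replicates 1 to 3 and overlapped. In the narrower span from 2 kb before to 0.5 kb after the start, with only 17 to 51 calls a library, Sp8 held 27.8%, 32.1% and 29.0% in young adult and 29.4%, 11.8% and 4.76% in aged replicates 1 to 3, again with overlap. The model gave -16.4 percentage points there for Sp8, 11.2 for Sp9 (adjusted p = 0.957 for each in the quasi-binomial model) and 4.39 for Dlx1 (0.978), none of them called. In BS libraries the Sp8 mean of that span was 16.7% in both ages, and the Sp9 difference of means was -2.68. Dlx1 overlapped in that span, and also within 0.5 kb of the start. Within 0.5 kb Dlx2 alone did not overlap, at 4.88%, 1.41% and 0.847% in young adult and 0% in each aged replicate. These values rest on 41, 71 and 118 young adult and 27, 46 and 53 aged calls, of which very few were methylated. In BS libraries Dlx2 overlapped there, at 1.14%, 3.53% and 2.26% in young adult and 0%, 1.94% and 3% in aged replicates 1 to 3. The share of all such narrow windows without overlap was not counted. In the windows of 2.5 kb to each side, the difference of means of the other 6 members ran from -4.78 percentage points at Gad2 to 4.78 at Sp9, within overlapping ranges. Single libraries set these values, as the Gad2 difference ran from -8.28 without aged replicate 2 to 0.083 without young adult replicate 3 and the Sp9 difference from 1.96 without aged replicate 3 to 7.21 without aged replicate 1.

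**Figure D4:**
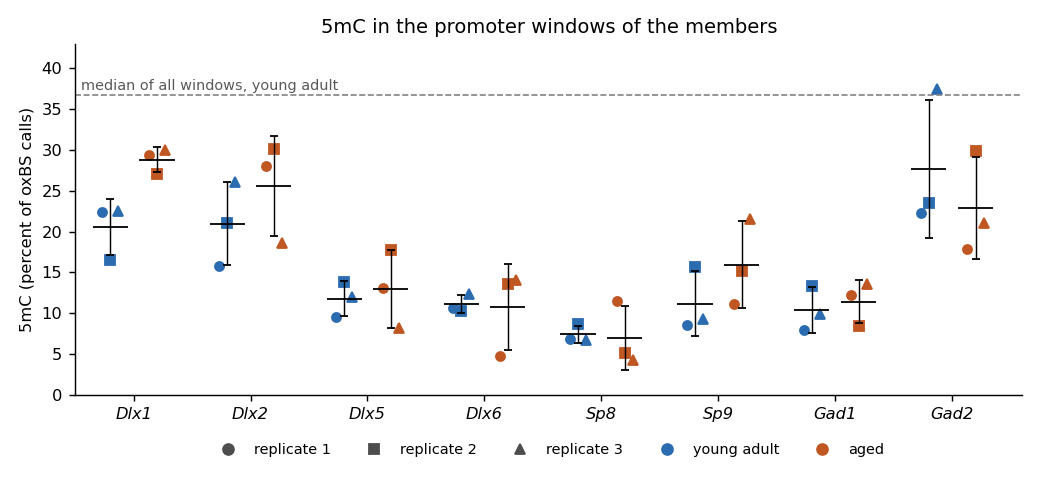
5mC as percent of oxBS calls in the promoter window of each member, for 3 young adult (blue) and 3 aged (orange) libraries, with the mean and SD in black and the median of all windows in young adult NSPCs dashed. The Dlx1 points separate by age, and the Sp8 points are among the lowest in both ages.

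Within the windows, 5mC varied with distance from the start on which they are centred. In 500-bp bins pooled over the 3 young adult libraries, 5mC at Dlx1 was 62.1% of 29 calls 250 bp before the centre and 44.2% of 52 calls 250 bp after it, then 0.621% of 161 calls at 1250 bp. The RefSeq start of Dlx1 lies 1332 bp downstream of the centre, in the unmethylated part. At Dlx2, whose starts coincide, 5mC was 4.82% of 83 calls 250 bp before and 0% of 147 calls 250 bp after the centre. At Sp8 it was 12.5% of 40 calls at 250 bp and 0% of 84 calls at 750 bp, the bin that holds the CpG-rich start shown above. At Gad1 it was 0% of 82 calls 750 bp before and of 102 calls 250 bp after the centre, and at Gad2 0.893% of 112 calls 250 bp after it.

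**Figure D5:**
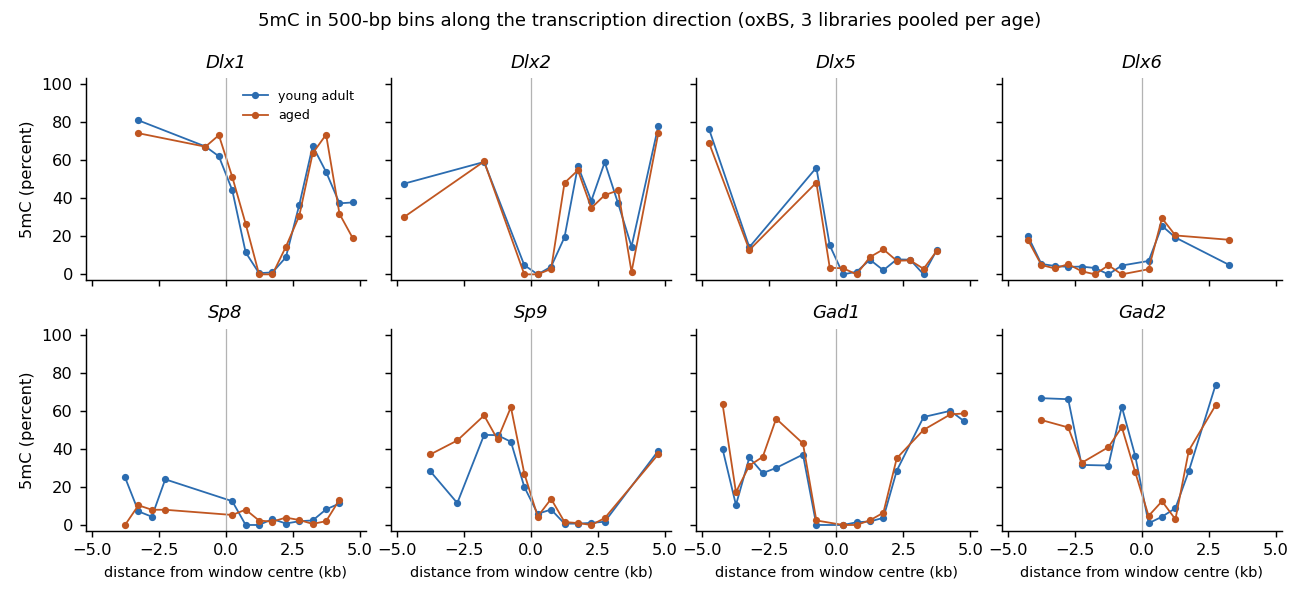
5mC in percent of oxBS calls, 3 libraries pooled per age, in 500-bp bins against the distance in kb from the window centre along the direction of transcription, for bins with at least 20 calls in each age. Young adult NSPCs are in blue and aged NSPCs in orange. Each gene has a stretch near 0%, on one side of the centre or across it.

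Over gene bodies 5mC ranged widely between the members. The long genes Gad2 and Gad1 held 64.1% ± 5.3 and 51.7% ± 5.2 5mC in young adult and 63.5% ± 2.8 and 50.9% ± 1.3 in aged NSPCs (SD, n = 3 each). Dlx1 held 25.2% and 25.6%, Sp9 19.6% and 22.6%, and Dlx6 15.2% and 15.4%. Dlx2 held 22.4% ± 11 and 32.5% ± 5.7, with overlap, and this difference of 10.1 percentage points was 6.49 without young adult replicate 1, 16.5 without young adult replicate 3 and 0.44 in BS libraries. Dlx5 held 4.39% ± 1.5 and 6.60% ± 1.6. Sp8 held 5.68%, 5.56% and 5.69% in young adult and 5.43%, 4.10% and 3.17% in aged replicates 1 to 3, the one body without overlap, as all aged values lay below all young adult values in 4.36% of 21810 gene bodies (exact permutation test, two-sided, p = 0.1, and 0.8 adjusted over the 8 bodies). That difference of -1.41 percentage points was -0.88 without aged replicate 3, and in BS libraries the Sp8 bodies overlapped between ages, with a difference of -0.89.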

How the data were processed

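The authors deposited RNA values as log2 RPM of 8 libraries, ChIP values as log2 RPM per age over 3 replicates, and counts of methylated and unmethylated calls per CpG position of GRCm38, beside a percent per site that was not used. The submitters' processing notes name STAR 2.3.0, Bowtie2 2.2.5, Bismark 0.12.5 and Trim Galore 0.4 and 0.3.7. The RNA kit did not keep strand. The limit values of 3 reads and the intervals of read ratios cover counting error only, while limma intervals rest on the spread between libraries.

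Whole reads were recovered from the log2 RPM, a gene without reads being listed at 0.9 reads. All values checked, 11686 to 14404 per library, lay within 0.02 of a whole read. The highest counts were rounded without this check, among them the 1762 reads of Gad2 in young adult replicate 1. Ages were compared with limma 3.58.1 with a mean-variance trend, without a block, over genes whose log2 RPM averaged -2 or more, with edgeR 4.0.16 and DESeq2 1.42.0 on whole reads as alternatives, in R 4.3.3. Adjustment was Benjamini-Hochberg over all genes or windows, and the threshold 0.05. Calls of at least 10 per library were summed over windows and compared by a quasi-binomial model with moderated dispersion, with a call needing 10 percentage points. Scripts were tested on simulated data. Sequences are from RefSeq, on GRCm38.p6.

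Same-numbered young adult and aged RNA libraries deviated together (r of 0.730, 0.201 and 0.830 over 13280 genes), so the numbers were taken to pair them. The sources used here do not state if a number marks a shared day. Replicates are separate derivations, each pooled from several mice, so p-values measure the spread between derivations. A fit with the block that leaves out a pair holds 2 pairs, too few for a gene's own spread. Its p-values lean on the spread shared over all genes, in limma wholly. The named genes are all 8 members, the 2 highest and 2 lowest log2 fold changes of each list, every other Dlx or Sp gene and the 3 genes most like each tested member. Some genes that this rule names are not reported here. Genes of lists named for levels, background marker lists and genes at 0 reads come beside them. The members and lists were chosen with earlier results of these data known.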

Additional observations from a re-analysis of the deposited data

How the results depend on the processing

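In RNA, members called by age numbered 0 without the block in limma, edgeR and DESeq2 under each filter and pseudocount, 1 with the replicate block, 2 with the C57BL/10 pair as a 4th block, and in edgeR from 10 reads 2 with the replicate block and 3 with the 4th block, Sp8, admitted by its young adult reads, among both. Leaving out a replicate gave 0 to 3. Genes called numbered 0 without the block, 74 with the replicate block and 265 with the 4th block, 117 and 384 in edgeR from 10 reads, and 4 in DESeq2 with either filter. Leaving out a replicate gave 0 to 446, and without pair 1, 2 and 3 in turn it was 409, 446 and 73 in limma and 311, 398 and 93 in edgeR with the replicate block. The edgeR and DESeq2 fits from 10 reads and the fits that leave out a pair were chosen after seeing the data. The log2 fold change of Gad1 ranged from -0.47 to 0.068 without 1 library and turned positive without aged replicate 2 (0.052 in edgeR), without pair 2 with the block (0.085 in limma and 0.063 in edgeR) and with the 4th block in edgeR (0.0098), and that of Sp9 did without pair 2 (0.0037). The cause was not tested.

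H3K4me3 windows of members called went from 1 to 0 at 2-fold or with Input subtracted, those of H3K27me3 from 0 to 1 with Input subtracted, and both together from 1 to 0 at 2-fold. Windows called over all genes were 58 for H3K4me3 and 416 for H3K27me3, against 6 and 43 at 2-fold, 4117 and 4121 with no minimum level, 715 and 840 with Input subtracted, and 149 and 941 over every window.

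For promoter 5mC, 0 windows were called under each fit over replicates, also with the replicate block (same-number r of -0.004, 0.02 and 0.05), and 680 by a chi-squared test on pooled calls, none of them of a member, although Dlx1 passed its p threshold (adjusted p = 0.0175) and missed the minimum of 10 percentage points. Differences that changed sign were -1.89 for Dlx1 and 1.501 for Gad2 in BS libraries (with and without the replicate block), -1.74 for Dlx2 and 0.49 for Sp8 within 0.5 kb, -3.01 for Gad1 from 2 kb before to 0.5 kb after the start, and without 1 library they ran from -0.83 to 3.25 for Dlx5, -2.37 to 2.64 for Dlx6 and -2.63 to 0.67 for Sp8. For gene bodies 0 members passed in oxBS or BS libraries, nor in the paired exact test. Neither exact test could have passed a member, as the unpaired one cannot go below p = 0.1 and the paired one below p = 0.25. The differences turned in BS libraries to 0.29 for Gad2, 0.59 for Gad1, -2.94 for Dlx1, -0.84 for Sp9 and -0.99 for Dlx6, and without 1 library they ran from -3.60 to 1.22 for Gad2, -3.39 to 1.79 for Gad1, -1.45 to 2.39 for Dlx1 and -2.07 to 3.80 for Dlx6. Depth limits Sp8, Dlx6 and Dlx5 in RNA, and single CpG positions, which held 1.204 to 1.323 oxBS calls each.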
